A study of Mus musculus with 7 samples.

Results

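The genes described here are 10 genes of the unfolded protein and amino acid stress responses, namely Atf4, Atf5, Ddit3, Xbp1, Hspa5, Trib3, Asns, Chac1, Sesn2 and Ddit4. They were chosen by name, each as the entry of that symbol among the 40743 genes of the deposited expression table, and all 10 were listed. RNA sequencing was performed on FACS-sorted retinal microglia (rMG), the resident macrophages of the neuroretina, from mice labelled Irf8 KO. The lasered group held 4 libraries from mice at day 7 following laser injury, the mouse model of choroidal neovascularisation, and the unlasered group held 3 libraries from untreated mice. All mice of both groups carried Irf8-/- and Cx3cr1GFP/+ on a C57BL/6J background, so every library came from animals with a reporter in place of 1 Cx3cr1 allele, and the wild-type controls of the study were not analysed here. Each library was pooled from 3 to 4 mice and from 10000 sorted cells on average, gated as CD45low, CD11b+, Cx3cr1GFP/+, Ly6C- and Ly6G-. For lasered mice only the central 70% of the retina was used, so that laser injury and retinal region cannot be told apart in any comparison below.

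The unfolded protein response is started by sensors in the endoplasmic reticulum (ER) membrane when unfolded proteins build up there. The sensor PERK, with the kinases GCN2, PKR and HRI, phosphorylates the translation factor eIF2alpha, which lowers general protein synthesis while favouring translation of the transcription factor ATF4, and ATF4 in turn switches on genes for amino acid synthesis and transport. The sensors IRE1 and ATF6 act through the transcription factor XBP1 and through ATF6 itself on chaperone genes such as Hspa5. ATF4 protein is set largely by translation and XBP1 activity by splicing, and neither of these steps was measured by the gene counts used here. Activated macrophages, which make and secrete large amounts of protein, are a cell type in which these pathways are known to be used.

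The 7 libraries held between 20427558 and 36022954 reads in the unlasered group and between 37133297 and 45919042 reads in the lasered group, and levels are given as CPM, which are counts divided by the size of the library and not by gene length. A count of 3 reads, the level that a count of 0 still allows, corresponded to 0.0653 to 0.147 CPM, a limit that covers counting error only. Reads of Irf8, the targeted gene, were present at 489 to 530 CPM in the unlasered and at 463 to 582 CPM in the lasered libraries. The libraries are therefore called Irf8 KO here by their labels and not by these reads. The paper states that its mice were genotyped and lists primers for Irf8. Whether the targeted allele still gives transcript was not tested here. Of the 10 microglia markers examined, 0 passed with limma, edgeR or voom and 1, P2ry12, with DESeq2. Their summed level was 26868 to 31682 CPM in unlasered and 25407 to 32699 CPM in lasered libraries. An unadjusted p under 0.05 (limma) was found for 2, P2ry12 and Aif1. P2ry12 was lower in every lasered library, at means of 493 ± 78.6 (SD, n = 3) and 309 ± 73.7 CPM (SD, n = 4, limma adjusted p = 0.0693). Aif1 was higher on average, at 71.2 ± 24.5 and 102 ± 15.3 CPM, with overlapping groups (limma adjusted p = 0.191). The 15 rod photoreceptor markers moved with the groups, as given beside the results they touch. In such bulk samples, fewer cells of a type and less RNA per cell cannot be told apart.

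Promoter sequences are shown first for the genes whose start regions held a match to an element known from these pathways, together with that of Atf4, the member with the largest change after laser injury. The windows run from 250 bases before to 49 bases after the RefSeq transcription start (GRCm38.p6), are written 5′ to 3′ on the strand of the gene, and positions are counted from 0 at the start. Capitals mark the matched letters. 3 patterns were searched on both strands, namely TGATGNAA, the core of the C/EBP-ATF response element bound by ATF4 with a C/EBP partner, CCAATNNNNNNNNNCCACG, the ER stress response element bound by ATF6 with NF-Y, and TGACGT, the core of the cAMP response element. All 10 genes were matched in the RefSeq table, Atf5 with 2 windows.
Hspa5, chr2:34771840-34772139, plus strand: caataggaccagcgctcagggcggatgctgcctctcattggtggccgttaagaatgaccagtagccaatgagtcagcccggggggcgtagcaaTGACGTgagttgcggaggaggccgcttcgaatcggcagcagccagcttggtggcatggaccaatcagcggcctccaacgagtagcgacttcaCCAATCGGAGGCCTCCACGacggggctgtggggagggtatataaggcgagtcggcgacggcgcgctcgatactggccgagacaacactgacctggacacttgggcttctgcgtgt
Atf4, chr15:80254934-80255233, plus strand: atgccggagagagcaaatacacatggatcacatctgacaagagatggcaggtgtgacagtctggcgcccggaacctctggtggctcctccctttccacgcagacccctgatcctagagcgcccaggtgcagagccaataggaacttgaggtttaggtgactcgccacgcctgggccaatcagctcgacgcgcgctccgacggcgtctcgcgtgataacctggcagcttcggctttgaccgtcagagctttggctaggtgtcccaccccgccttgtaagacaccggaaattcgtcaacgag
Chac1, chr2:119351019-119351086, plus strand: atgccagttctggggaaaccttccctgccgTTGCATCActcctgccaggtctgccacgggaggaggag
Trib3, chr2:152344011-152344076, minus strand: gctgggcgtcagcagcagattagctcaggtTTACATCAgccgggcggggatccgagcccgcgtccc
Asns, chr6:7693195-7693262, minus strand: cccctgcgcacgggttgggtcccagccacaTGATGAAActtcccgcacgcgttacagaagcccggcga

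The ER stress response element was matched in the window of Hspa5 at position -65 and in that of no other member, against 0.119% of all 32851 windows in the RefSeq table. Hspa5 also held a TGACGT at position -157, a pattern present in 7.51% of all windows. The C/EBP-ATF core was matched in Asns at position -23 and, on the opposite strand, in Chac1 at position -193 and in Trib3 at position 14, so in 3 of 10 members against 3.97% of all windows. The windows of Atf4, Atf5, Ddit3, Xbp1, Sesn2 and Ddit4 held none of the 3 patterns, which says only that these letters are not in these windows. These matches are descriptions of the sequence, and binding was not measured.

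Following laser injury, 2 of the 8 members that could be tested fell, and none rose. These were Atf4, the transcription factor at the centre of the integrated stress response, and Hspa5, which encodes the ER chaperone BiP. Of the others, Xbp1 was lower in every lasered library but did not pass the test, while Ddit3, Ddit4, Trib3, Asns and Sesn2 had groups that overlapped. Atf5 and Chac1 were too low to be tested, as they did not reach 1 CPM in at least 3 libraries. Across all 17496 genes tested with limma, 6.93% had an adjusted p under 0.05, 3.07% lower and 3.86% higher after laser injury, beside which stand 2 of 8 members lower and 0 of 8 higher.

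**Figure D1:**
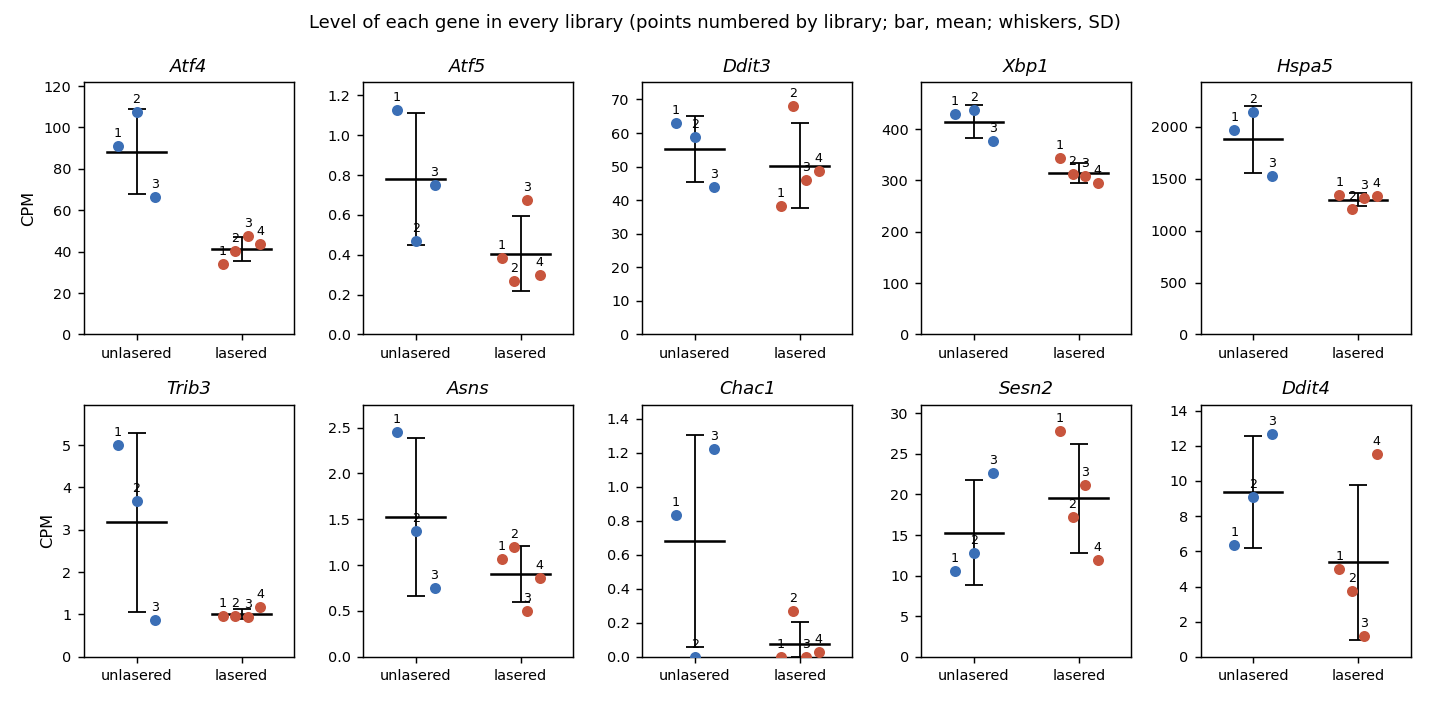
Level in CPM (vertical axes, each starting at 0) of the 10 genes in the 3 unlasered (blue) and 4 lasered (red) libraries, numbered by library, with the group mean as a bar and the SD as whiskers (drawn no lower than 0). The groups of Atf4, Xbp1 and Hspa5 do not overlap, and in 6 of the 10 genes the lowest unlasered point is library 3.

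Atf4 (ENSMUSG00000042406, chr15:80255184-80257541, GRCm38) measured 91.0, 108 and 66.5 CPM in unlasered libraries 1 to 3 and 34.1, 40.2, 47.4 and 43.8 CPM in lasered libraries 1 to 4. Every lasered library was below every unlasered library, and the highest lasered value lay well under that of unlasered library 3, the lowest of its group. The group means were 88.4 ± 20.7 CPM (SD, n = 3) and 41.4 ± 5.68 CPM (SD, n = 4), so that the lasered mean was 46.8% of the unlasered mean. On the scale of log2(CPM + 1) the change was -1.06 with a standard error of 0.19 and a 95% interval from -1.49 to -0.63 (limma, adjusted p = 0.0166). It was -0.97 to -1.25 without any 1 of the unlasered libraries 1 and 3 or the lasered libraries, and -0.91 without unlasered library 2. Without lasered library 2 the adjusted p was 0.0576, so the call was lost, although the change of -1.05 hardly moved. In that setting 262 of all genes were called, against 1213 with every library.

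Hspa5 (ENSMUSG00000026864, chr2:34771970-34777547) was the most abundant of the 10 and ranked 37 among all listed genes by mean CPM. Unlasered libraries 1 to 3 held 1968, 2144 and 1522 CPM, and lasered libraries 1 to 4 held 1339, 1210, 1313 and 1330 CPM. The groups did not overlap, but unlasered library 3 lay nearer to the lasered libraries than to the other two of its group. The means of 1878 ± 320 CPM (SD, n = 3) and 1298 ± 59.9 CPM (SD, n = 4) differed by -0.52 on the log2(CPM + 1) scale, with a standard error of 0.13 (95% interval -0.81 to -0.22, adjusted p = 0.0483). This call lay close to the threshold and was lost without unlasered library 1 or 2 or any lasered library (adjusted p from 0.0844 to 0.140), whereas without unlasered library 3 the change was -0.66 with an adjusted p of 0.0144. With edgeR and TMM scaling the adjusted p was 0.0631, with voom 0.0703, with median-of-ratios scaling 0.103 and with DESeq2 0.014.

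Xbp1 (ENSMUSG00000020484, chr11:5520659-5525893), the transcription factor gene whose RNA is spliced by IRE1, measured 430, 437 and 377 CPM in unlasered and 343, 312, 309 and 296 CPM in lasered libraries. Every lasered value was below every unlasered value, with unlasered library 3 the lowest and lasered library 1 the highest of their groups. The means were 415 ± 32.6 CPM (SD, n = 3) and 315 ± 20.0 CPM (SD, n = 4), a difference of -0.39 on the log2(CPM + 1) scale with a standard error of 0.11 (adjusted p = 0.0694). The difference thus missed the threshold, and its 95% interval, taken for this gene alone, ran from -0.65 to -0.14. With DESeq2 (adjusted p = 0.0207) and without unlasered library 3 (adjusted p = 0.0369) it passed. Atf4, Xbp1 and Hspa5 made 3 of 8 members in which all lasered libraries were below all unlasered libraries, against 10.7% of all genes tested.

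Ddit3 (ENSMUSG00000025408, chr10:127290774-127296288) encodes CHOP, a transcription factor induced by ATF4 and known for its part in cell death under lasting ER stress. It measured 62.9, 58.8 and 44.0 CPM in unlasered and 38.4, 68.0, 45.9 and 48.8 CPM in lasered libraries, and the highest value of all belonged to lasered library 2. The groups overlapped, and the difference of -0.15 on the log2(CPM + 1) scale had a 95% interval from -0.62 to 0.33 (adjusted p = 0.734), so that at this spread neither a fall of that size nor a small rise could be told from no change. The annotation places 68 exonic bases of Ddit3 over exons of Mars, which encodes a methionyl-tRNA synthetase on the opposite strand, and the library kit does not mark strand, so reads from that stretch cannot be told apart. GENCODE M21 also has a second gene model named Ddit3, on the same strand and with 105 shared exonic bases, whose identifier (ENSMUSG00000116429) is not among those of the entry used here.

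Atf5 (ENSMUSG00000038539, chr7:44812256-44816658), a transcription factor gene translated under eIF2alpha phosphorylation much as Atf4 is, was low throughout. It measured 1.13, 0.467 and 0.75 CPM in unlasered and 0.385, 0.267, 0.675 and 0.296 CPM in lasered libraries, and the groups overlapped. Since only unlasered library 1 reached 1 CPM, Atf5 did not pass the filter. The difference was -0.33 where it could be fitted, with an adjusted p of 0.391 without a filter and 0.322 with a minimum mean of 10 reads. It shares 82 exonic bases with genes on the opposite strand, Il4i1 and Nup62.

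**Figure D2:**
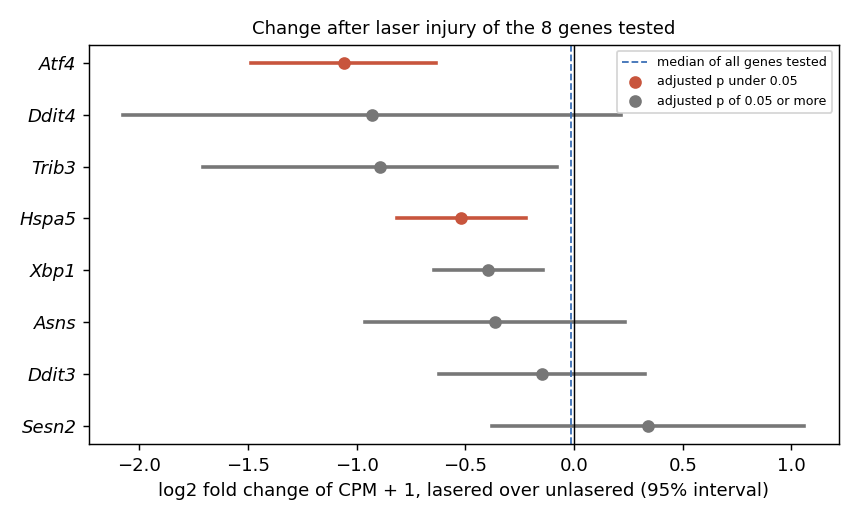
Change of the 8 tested genes on the log2(CPM + 1) scale (horizontal axis, lasered over unlasered, point with 95% interval from limma) beside the median of all genes tested (dashed line at -0.01). Atf4 at -1.06 and Hspa5 at -0.52, in red, had an adjusted p under 0.05, and the widest interval belonged to Ddit4.

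Among the targets of ATF4 and CHOP, 0 of 4 tested members passed with limma, edgeR or voom. Trib3 alone had an unadjusted p under 0.05, and Trib3 alone was called by DESeq2. Over all genes tested, 22.7% had an unadjusted p under 0.05, and DESeq2 called 2318 of 17496. Trib3 (ENSMUSG00000032715, chr2:152337422-152344032), a pseudokinase gene whose product restrains ATF4 and CHOP, measured 4.99, 3.68 and 0.861 CPM in unlasered libraries 1 to 3, from 102, 126 and 31 reads. The lasered libraries held 0.974, 0.958, 0.936 and 1.18 CPM, from 43, 43, 43 and 44 reads. Unlasered libraries 1 and 2 stood above all others, while unlasered library 3 was the lowest of the 7, so the groups overlapped. The difference was -0.89 with a standard error of 0.36 (95% interval -1.71 to -0.08, adjusted p = 0.181). Without unlasered library 3 it was -1.40 with an adjusted p of 0.0167, and DESeq2 on recovered reads gave -1.64 and 0.045, while edgeR gave -1.64 and 0.0966 and a pseudocount of 0.1 gave -1.25 and 0.208. The cause of these differences was not tested.

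Asns (ENSMUSG00000029752, chr6:7675169-7693254), which encodes asparagine synthetase, measured 2.45, 1.37 and 0.75 CPM in unlasered and 1.06, 1.20, 0.501 and 0.862 CPM in lasered libraries. Unlasered libraries 1 and 2 were above every lasered library and unlasered library 3 lay among them, with a difference of -0.36 (95% interval -0.96 to 0.24, adjusted p = 0.467). Chac1 (ENSMUSG00000027313, chr2:119351229-119354381), which encodes an enzyme that degrades glutathione, was counted with 17, 0 and 44 reads in unlasered and 0, 12, 0 and 1 reads in lasered libraries, or 0.832, 0 and 1.22 CPM and 0, 0.267, 0 and 0.0269 CPM. It was present in some libraries of either group and listed at 0 in 3 of the 7, and a count of 0 allows a true level of up to 3 reads, or 0.0876 CPM in unlasered library 2. Its difference was -0.58, with an adjusted p of 0.292 without a filter and 0.229 with a minimum mean of 10 reads.

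Sesn2 (ENSMUSG00000028893, chr4:132492032-132510501), which encodes the leucine sensor Sestrin 2 that restrains mTORC1, was the only tested member whose mean was higher after laser injury. It measured 10.5, 12.7 and 22.6 CPM in unlasered and 27.8, 17.2, 21.1 and 11.9 CPM in lasered libraries. The groups overlapped over most of their range, and the difference of 0.34 had a 95% interval from -0.38 to 1.06 (adjusted p = 0.581). A further 0.147 to 2.21 CPM per library were listed jointly for Sesn2 and Gm12981, a gene of biotype antisense that the annotation places on the same strand within its span, with 0 shared exonic bases. Ddit4 (ENSMUSG00000020108, chr10:59949669-59951834), which encodes REDD1, another brake on mTORC1, measured 6.36, 9.08 and 12.7 CPM in unlasered and 4.98, 3.76, 1.18 and 11.6 CPM in lasered libraries. Lasered library 4 lay among the unlasered libraries and lasered library 3 far below all others, so the difference of -0.93 had a wide 95% interval from -2.07 to 0.22 (adjusted p = 0.32).

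**Figure D3:**
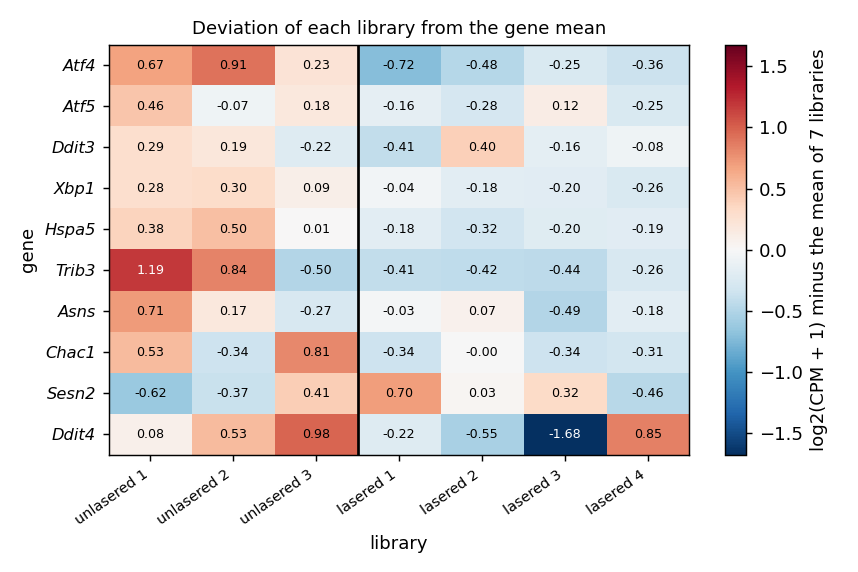
Deviation of log2(CPM + 1) in each library (columns) from the mean of the 7 libraries for each of the 10 genes (rows of the heat map), red above and blue below the mean. Trib3 deviates by 1.19 in unlasered library 1 and by -0.50 in unlasered library 3, and the lowest cell is Ddit4 in lasered library 3 at -1.68.

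The members did not all order the libraries of a group alike. Unlasered library 3 was the lowest of the 3 unlasered libraries for Atf4, Ddit3, Xbp1, Hspa5, Trib3 and Asns, and the highest for Chac1, Sesn2 and Ddit4. The SD of the unlasered libraries was 7.86% of the mean for Xbp1, 17.1% for Hspa5, 23.4% for Atf4 and 66.4% for Trib3. Among the lasered libraries it was 4.61% for Hspa5, 6.35% for Xbp1, 13.7% for Atf4 and 82.3% for Ddit4.

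Levels of different genes were set side by side only after division by exonic length, as CPM per kilobase. In unlasered libraries Hspa5 stood highest at 444 ± 75.8 CPM per kilobase, followed by Xbp1 at 128 ± 10.03, Atf4 at 37.5 ± 8.76, Ddit3 at 32.2 ± 5.82, Ddit4 at 5.34 ± 1.81, Sesn2 at 4.401 ± 1.85 and Trib3 at 1.495 ± 0.994 CPM per kilobase (SD, n = 3). Asns, Chac1 and Atf5 followed, each under 1 CPM per kilobase on average. The ranges of Atf4 and Ddit3 overlapped, as did those of Ddit4 and Sesn2 and those of neighbours from Trib3 downwards, whereas Hspa5, Xbp1 and the pair of Atf4 and Ddit3 were each separated from the next.

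In lasered libraries Hspa5 was at 307 ± 14.2 and Xbp1 at 96.9 ± 6.16 CPM per kilobase (SD, n = 4), and Ddit3 at 29.3 ± 7.36 stood above Atf4 at 17.5 ± 2.41, with ranges that did not overlap. Within a library, where the total cancels, the level of Atf4 per kilobase was 1.05, 1.33 and 1.10 times that of Ddit3 in unlasered libraries 1 to 3 and 0.645, 0.43, 0.75 and 0.652 times in lasered libraries 1 to 4. By these lengths Atf4 exceeded Ddit3 in each unlasered library and fell short of it in each lasered library. The exonic length joins all annotated gene models, and the 2358 bases of Atf4 cover the whole span of the gene. Which gene stood higher therefore depends on the lengths used, whereas the lower ratio in every lasered library does not. The comparison was chosen after the values were seen and is given without a test.

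The other genes of the pathway were described by 4 lists with 86 genes, of which 85 were listed and 81 tested, and Fgf21 was not analysed here. With limma, 0 of the 81 rose and 2 fell, and both of these were paralogs of members. In all, 60 of 81 had a difference below 0, with a median of -0.19, beside 51.6% below 0 and a median of -0.01 over all genes tested. For 21 of 81 every lasered library was below every unlasered library, and for 2 every lasered library was above, beside 10.7% and 10.4% of all genes tested. An unadjusted p under 0.05 was found for 24 of 81, 21 of them lower, beside 22.7% of all genes tested, 11.6% lower. DESeq2 called 2318 of the 17496 genes tested, 1141 of them lower. The counts of such genes in the lists below are to be read against these values. These lists were put together with earlier results of these data known, and the counts describe them without a test.

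**Figure D4:**
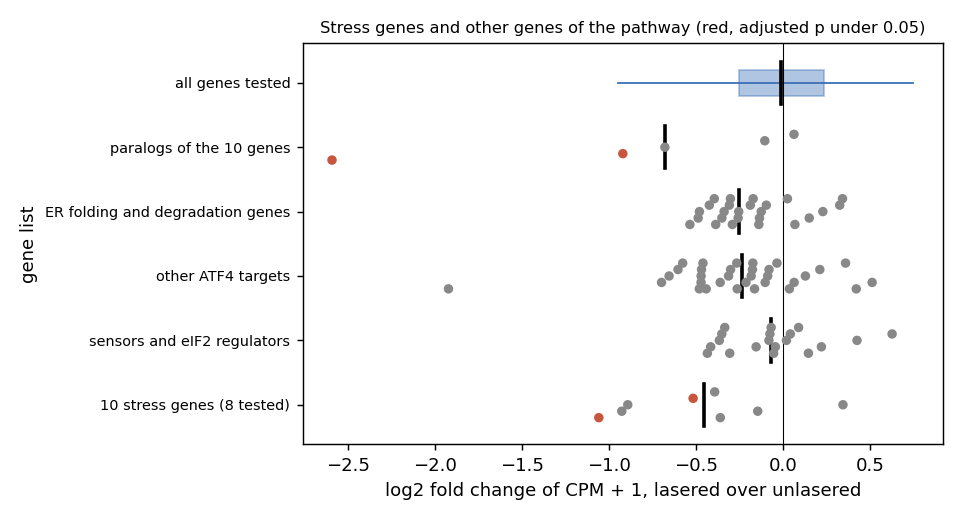
Change on the log2(CPM + 1) scale (horizontal axis, lasered over unlasered) of each tested gene (points, red where the adjusted p was under 0.05) in the 10 stress genes and 4 other lists, with the median of each list as a bar. The box of all genes tested spans their middle 50% and the line their 5th to 95th percentile, and the medians lie at -0.46 for the stress genes and at -0.01 for all genes.

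The 19 sensors, eIF2alpha kinases and phosphatases and subunits of eIF2 and eIF2B were all tested, and 0 passed with limma, edgeR, voom or DESeq2, while 5 had an unadjusted p under 0.05, 3 of them lower. Their median difference was -0.07. Atf6, the sensor that is cleaved to a transcription factor, measured 72.2, 92.6 and 173 CPM in unlasered and 136, 122, 118 and 93.6 CPM in lasered libraries, with overlapping groups and a difference of 0.14 (adjusted p = 0.801). Mbtps1, which encodes the protease that makes the first cut in ATF6, measured 79.1, 90.7 and 106 CPM and 90.8, 87.3, 94.6 and 103 CPM, a difference of 0.04 (adjusted p = 0.90). Eif2ak2, which encodes the interferon-induced kinase PKR, was the only gene of this list with every lasered library above every unlasered library and is named for that after its values were seen. It measured 26.7, 19.9 and 27.6 CPM in unlasered and 32.0, 32.1, 37.7 and 31.1 CPM in lasered libraries (difference 0.42, adjusted p = 0.158).

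Of 36 other known targets of ATF4, 32 were tested and 0 passed with limma, edgeR or voom, while 10 had an unadjusted p under 0.05, 9 of them lower, and DESeq2 called 1. In alternatives to the reported fit, limma called Cth lower with no filter, with a mean of at least 10 reads and after thinning. Nupr1 was called lower without unlasered library 3. Both are named after their values were seen. The median difference of the list was -0.24. Slc3a2, the shared heavy chain of amino acid transporters, measured 719, 597 and 509 CPM in unlasered and 459, 440, 519 and 602 CPM in lasered libraries, with a difference of -0.27 (adjusted p = 0.356). Nars, which encodes asparaginyl-tRNA synthetase, measured 334, 307 and 289 CPM and 250, 248, 319 and 284 CPM, a difference of -0.18 (adjusted p = 0.458), and the groups of both genes overlapped. A difference below 0 was found for 11 of 12 tRNA synthetase genes, beside 51.6% of all genes tested. It was found for 6 of 7 amino acid transport genes, 4 of 7 amino acid synthesis genes and 4 of 6 regulators. In Aars, Gars, Mars1, Yars and Cars, named after their values were seen, no lasered library reached the unlasered ones (adjusted p from 0.0808 for Aars to 0.226 for Gars). These are 5 of 12, beside 10.7% of all genes tested. The serine synthesis gene Psat1, the gene DESeq2 called, stood on the other side, with 65.5, 66.2 and 77.7 CPM in unlasered and 99.6, 83.6, 104 and 87.5 CPM in lasered libraries (difference 0.42, limma adjusted p = 0.102).

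The 25 genes of ER folding and degradation were all tested, and 0 passed with limma, edgeR or voom, while 6 had an unadjusted p under 0.05, all of them lower, and DESeq2 called 2 lower. Their median difference was -0.26. A difference below 0 was found for 10 of 11 chaperone genes, 4 of 6 disulfide isomerase and oxidase genes and 5 of 8 genes of ER-associated degradation. Over all genes tested the share was 51.6%. Pdia3, a disulfide isomerase, measured 1765, 1673 and 1304 CPM in unlasered and 1049, 966, 1574 and 1285 CPM in lasered libraries, where lasered library 3 lay among the unlasered ones (difference -0.39, adjusted p = 0.249). Calr, which encodes the lectin chaperone calreticulin, measured 1007, 1106 and 930 CPM and 831, 719, 896 and 842 CPM. The groups of Calr did not overlap, but the difference of -0.30 did not pass (adjusted p = 0.159). Without unlasered library 3, 4 genes of this list passed, 3 lower and 1 higher. Over all 17496 genes, 1406 passed in that setting, 556 lower and 850 higher.

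Of 6 paralogs of the members, 5 were tested and 2 fell. Trib2, a pseudokinase gene related to Trib3, measured 2.69, 23.3 and 9.08 CPM in unlasered and 2.40, 0.0445, 0.762 and 0.0539 CPM in lasered libraries, a difference of -2.59 with a standard error of 0.62 (adjusted p = 0.0416). Chac2, related to Chac1, measured 3.52, 5.29 and 4.58 CPM and 1.68, 1.36, 2.87 and 1.72 CPM, a difference of -0.92 with a standard error of 0.23 (adjusted p = 0.0471). Both calls were lost without unlasered library 2 (adjusted p = 0.0867 for Trib2 and 0.116 for Chac2). That of Trib2 was also lost without unlasered library 3 or lasered library 2, 3 or 4 and that of Chac2 without any other library, and over all alternatives the adjusted p reached 0.206 for Trib2 and 0.169 for Chac2. Sesn1, at 576, 320 and 441 CPM and 370, 358, 472 and 417 CPM, differed by -0.11 (adjusted p = 0.789), and Trib1, at 32.2, 48.7 and 42.1 CPM and 43.4, 39.9, 41.0 and 44.7 CPM, by 0.06 (adjusted p = 0.859).

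Rod photoreceptor markers moved with the groups. Of 15 markers, 14 fell after laser injury with limma. The count was 15 with edgeR and DESeq2, 11 with voom and 4 with no filter. It was 3 to 15 with a library left out, the fewest without lasered library 2, and 0 with the replicate block. The summed level of the 15 was 2189, 19753 and 5793 CPM in unlasered libraries 1 to 3. In lasered libraries 1 to 4 the sum was 1027, 445, 806 and 319 CPM, under every unlasered sum (exact permutation test, two-sided, p = 0.0571, which this design cannot go below). Trib2 and Chac2 ordered the unlasered libraries as the rod sum did, with library 2 highest and library 1 lowest, and 0 of the 10 members had this order. An order of 3 libraries cannot show which cells the reads came from. Atf4 and Hspa5 were highest in unlasered library 2, which had the highest rod sum, and lowest in unlasered library 3, which had a higher rod sum than library 1. Without unlasered library 2, Atf4 kept a difference of -0.91 (adjusted p = 0.0411), and Hspa5 had one of -0.42 that did not pass (adjusted p = 0.14). With Apoe and the rod markers left out of the library totals, the limma adjusted p was 0.0174 for Atf4 and 0.0456 for Hspa5. This changes only the scaling and leaves any reads of these genes from rods in place. The part of rod RNA in these results was not tested.

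Of the other lists, the 10 Mueller glia markers summed to 52416 to 77390 CPM in unlasered and 29570 to 72725 CPM in lasered libraries, nearly all of it Apoe, which microglia also express, and 1 of 8 tested genes, Dkk3, fell. Vim was above every unlasered library in every lasered library, at means of 16.6 ± 10.8 (SD, n = 3) and 61.8 ± 39.3 CPM (SD, n = 4). It did not pass with limma (adjusted p = 0.0695) but did with DESeq2, with median-of-ratios scaling and without unlasered library 3. The 8 monocyte markers summed to 111 to 393 and 275 to 979 CPM, and 1 of 6 tested genes, Fn1, rose (limma adjusted p = 0.0485). Fn1 alone held 776, 525, 593 and 248 CPM in lasered libraries 1 to 4, most of each sum. The paper reports Fn1 in microglia too, so the sum does not mark monocytes alone. Among the others, Plac8 was lower on average and Ccr2 and F13a1 were higher, all with overlapping groups. Fn1 was not called by edgeR, voom or DESeq2, and DESeq2 called Ccr2 higher, at means of 8.72 ± 4.73 (SD, n = 3) and 59.1 ± 56.0 CPM (SD, n = 4) with overlapping groups. The 8 markers of retinal pigment epithelium summed to 25.1 to 27.0 and 23.2 to 27.4 CPM, the 6 neutrophil markers to 0.263 to 10.8 and 0.269 to 8.15 CPM, and the 6 endothelial markers to 15.8 to 58.4 and 13.4 to 28.8 CPM. Of their 7 tested genes, 0 passed with limma, edgeR, voom or DESeq2, and 1 had an unadjusted p under 0.05. In these lists Rpe65, Ly6g and Cldn5 were at or near 0, while Rdh5 at 16.5 to 21.2 CPM made up most of the pigment epithelium sum, Pecam1 at 7.76 to 36.8 CPM and Kdr at 2.29 to 11.7 CPM were present among the endothelial markers, and S100a8 reached 7.20 CPM among the neutrophil markers. The 8 genes known to be induced by tissue dissociation, among them Fos and Jun, summed to 673 to 701 CPM in unlasered and 509 to 854 CPM in lasered libraries, and 0 of 7 tested passed with any of these tools or had an unadjusted p under 0.05. Exact permutation tests of these sums gave p from 0.114 to 0.914. Library totals did not overlap between the groups, and after every library was thinned to the smallest total the adjusted p was 0.0142 for Atf4 and 0.0489 for Hspa5.

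**Figure D5:**
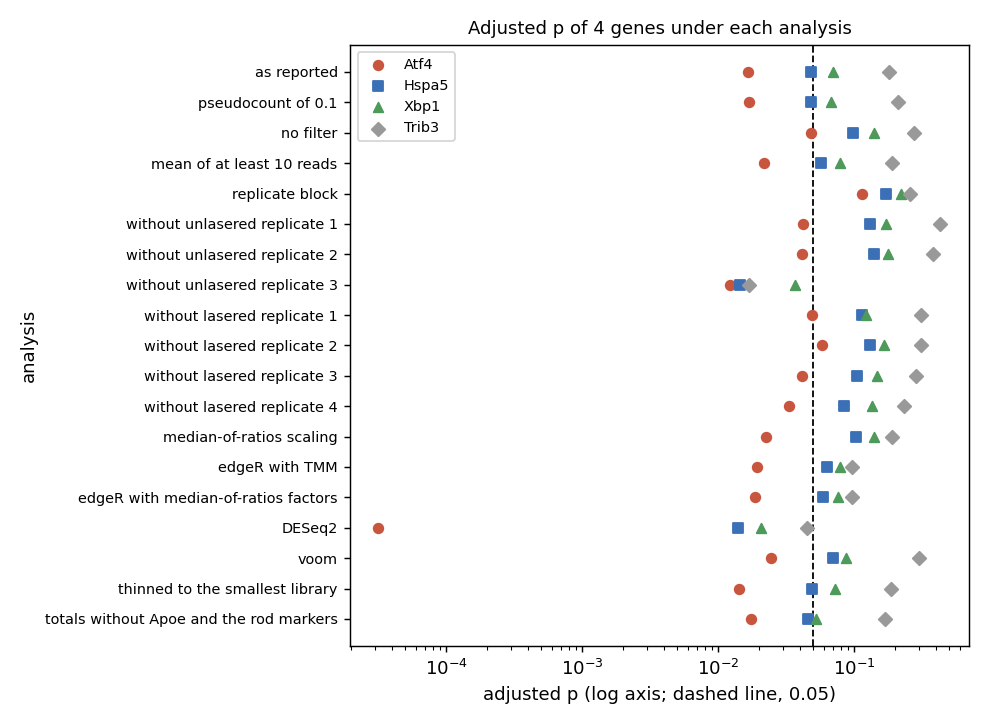
Adjusted p (horizontal log axis, threshold of 0.05 dashed) of Atf4, Hspa5, Xbp1 and Trib3 under the analysis as reported and 18 others (vertical axis). Atf4 lies below the threshold except with the replicate block (0.113) and without lasered library 2 (0.0576), and all 4 genes lie below it without unlasered library 3 and with DESeq2.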

How the data were processed

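RNA was sequenced from FACS-sorted rMG labelled Irf8 KO, in 3 unlasered and 4 lasered libraries grouped by the sample labels, each a separate pool of mice by the extraction protocol. The labels do not say whether the pools were made on separate days, so p-values measure only the spread between these samples, which may in part be technical. cDNA was made with a SMARTer and a Nextera kit, which do not mark strand. The authors trimmed adapters with cutadapt, removed duplicate reads, mapped with bowtie2 and counted reads per gene with HTSeq on GRCm38. Although the column heads read TPM, the values the authors deposited are CPM, since within a library all genes, long or short, shared the same smallest step. Whole reads were recovered for 100% of the values (tolerance 0.1 read), which sum to the library totals given above. For 4492 genes part of the reads was listed jointly with an overlapping gene. Coordinates and exonic lengths come from GENCODE M21 (GRCm38).

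The comparison of groups used limma 3.58.1 (R 4.3.3) on log2(CPM + 1) (trend and robust options of eBayes). A gene was tested if 3 or more libraries reached 1 CPM, which 17496 genes did. Tests were two-sided, p-values were adjusted over all genes tested with the Benjamini-Hochberg method, and genes with an adjusted p under 0.05 were called. On this scale the change of low genes is understated. A count model was not used for the reported values because the table holds CPM, and edgeR 4.0.16 and DESeq2 1.42.0 were run on the recovered reads as alternatives. The test was tested on simulated counts. A simulated 2-fold change was called for 18.0% of 194 genes and a 4-fold change for 90.3% of 196, where 12.5% and 4.32% of the calls fell on unchanged genes. Sums were compared with exact permutation tests (scipy 1.17.1), and figures were drawn with matplotlib 3.10.9.

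The members and the gene lists were chosen with earlier results of these data known. Named were the 10 members, every called gene of the other lists, the 2 genes of each list with the highest mean CPM, and a few genes named after their values were seen, as stated there. Alternatives were a pseudocount of 0.1, no filter, 10 reads or more on average, a replicate block, leaving out single libraries, median-of-ratios scaling, edgeR, DESeq2, voom and thinning to the smallest library. Totals without Apoe and the rod markers, and Sesn2 with its joint reads, were added after seeing the data.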

Additional observations from a re-analysis of the deposited data

Results flagged for a closer look

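Among 35 values checked in the 4 lasered libraries (genes named and marker sums), 3 had a single library far from the other lasered libraries by Dixon's criterion, where chance gives about 1 in 20. Trib3 stood at 1.18 CPM in lasered library 4, against 0.936 to 0.974 CPM in the others. These values came from 44 reads in lasered library 4 and 43 reads in each of the others. The gap thus follows from the smaller total of library 4 and is no larger than counting error allows. Chac1 stood at 0.267 CPM, or 12 reads, in lasered library 2, against 0 to 0.0269 CPM in the others. Eif2ak2 stood at 37.7 CPM in lasered library 3, against 31.1 to 32.1 CPM in the others.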

How the results depend on the processing

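All 8 tested members kept the direction of their difference in every alternative. Atf4 was called in 16 of 18 alternatives and Hspa5 in 5 of 18, while Xbp1 and Trib3 were each called in 2 of 18 and Ddit3, Ddit4, Asns and Sesn2 in none. The number of members called was 2, and it was 1 with no filter, with a mean of at least 10 reads, with median-of-ratios scaling, with edgeR under either scaling and with voom, 4 with DESeq2 and 0 to 4 with a library left out. The number of other pathway genes called was 2, and it was 0 with a pseudocount of 0.1 or with edgeR under either scaling, 1 with no filter, a mean of at least 10 reads, median-of-ratios scaling or voom, 4 with DESeq2 and 0 to 5 with a library left out. Over all genes, 1213 were called, against 385 with no filter, 2318 with DESeq2 and 262 to 1406 with a library left out, the fewest without lasered library 2, and the cause of these differences was not tested. The labels do not say whether same-numbered libraries were prepared together. The deviations of same-numbered libraries correlated at -0.183, -0.126 and -0.0234, which cannot settle it. With the replicate block, which leaves out lasered library 4, 3 genes, 0 members and 0 other pathway genes were called. The group difference of each marker sum moved by less than the pooled SD of the libraries in every alternative, which is a wide limit. The rod difference went from -8595 CPM to -3341 CPM without unlasered library 2. The microglia difference went from -819 CPM to 971 CPM with median-of-ratios scaling. At these group sizes changes of about a factor of 2 were mostly missed in simulated data, so members that did not pass cannot be taken as unchanged.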
